A study of Mus musculus with 6 samples.

Results

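The genes examined were 10 immediate early genes of mouse erythroid leukemia cells: the AP-1 genes Fos, Fosb, Jun, Junb and Jund, the zinc finger genes Egr1 and Egr3, Ier2, the nuclear receptor gene Nr4a1 and the phosphatase gene Dusp1. They were chosen by symbol, with earlier results of these data known, and all 10 were found among the 13007 genes of the deposited table. RNA sequencing compared 3 libraries of acute erythroid leukemia cells (AEL) with 3 libraries of normal erythroid precursors (NC), all of C57BL/6 mouse bone marrow. The AEL cells are labelled Trp53-/- and ERG-expressing, and carried introduced ERG, a transcription factor of the ETS family, and were sorted as GFP+. The NC cells are labelled WT and were sorted after staining for CD71 and Ter119, surface proteins of red cell precursors. The tissue label of all 6 libraries, NC included, names transformation by mutations of SETBP1 and ASXL1, at odds with the WT genotype given for NC; which label holds is unknown. Because the groups were sorted on different markers, effects of sorting and of leukemia cannot be told apart in any difference below. The replicates are labelled biological, but nothing ties each to its own animal: the p-values below reflect only how much these samples vary, which may be technical. In bulk samples, fewer cells of a type and less RNA per cell cannot be told apart.

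Immediate early genes are transcribed within minutes of a growth factor, cytokine or stress signal, from regulators already present in the cell, chiefly SRF with its TCF partners and CREB, which MAP kinases activate. Their products are mostly short-lived transcription factors. AP-1 is a dimer of a JUN protein with a FOS protein or with another JUN; FOS proteins need a JUN partner. In blood, these genes are strongly used by myeloid cells, and their RNA also responds to the handling and sorting of cells.

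Library totals ran from 8171676 to 9945330 counts. Values are given as CPM, counts scaled to a common library total after TMM scaling (a correction for library composition), and 3 counts stand for 0.274 to 0.387 CPM in these libraries. The AEL libraries varied far more among themselves than the NC libraries, the biological coefficient of variation being 44.1% in AEL and 9.01% in NC. The edgeR test fitted a shared spread per gene for both groups, so its SEs and p-values follow neither group's own spread. Trp53 was at 1171, 1092 and 976 CPM in the libraries labelled Trp53-/-, and at 177, 175 and 162 CPM in NC; counts summed over a whole gene cannot check a deletion in it. Erg was at 790, 556 and 684 CPM in the AEL libraries, and NC libraries had 4.38, 7.56 and 8.52 CPM. Of 12 erythroid markers, 9 were lower in AEL and 0 higher, and all 12 were counted in every library of both groups: Gata1, the erythroid master regulator, which did not pass, was at 377, 276 and 276 CPM in the AEL libraries, and NC libraries had 443, 388 and 389 CPM.

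Every one of the 10 genes was lower in each AEL library than in each NC library, which held for 36.1% of all genes tested, and 9 of the 10 passed the test (edgeR quasi-likelihood test, adjusted p under 0.05 over all genes). Lower calls made up 29.0% of the 12427 genes tested, higher calls 23.9% and both 52.8%; among the 10 genes 0 were called higher, and 0 had every AEL library above every NC library, against 29.9% of all genes. Egr3 passed the filter on low counts (1 CPM in at least 3 libraries) through the NC libraries alone, and Nr4a1 with 1 AEL library at 1 CPM or more, so their place in these counts partly follows from the filter. The 10 genes were also chosen with earlier results of these data known, so their shares beside those of all genes are a description only. Median log2 fold change over the 10 genes was -3.82, or -3.32 with Egr3 at the bound that a count of 0 allows, against -0.05 over all genes tested. Their summed level was 279, 166 and 273 CPM in AEL and 1185, 1259 and 1540 CPM in NC, a 5.55-fold difference of the means (exact permutation test, two-sided, p = 0.1, the smallest that 3 against 3 samples can give).

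**Figure D1:**
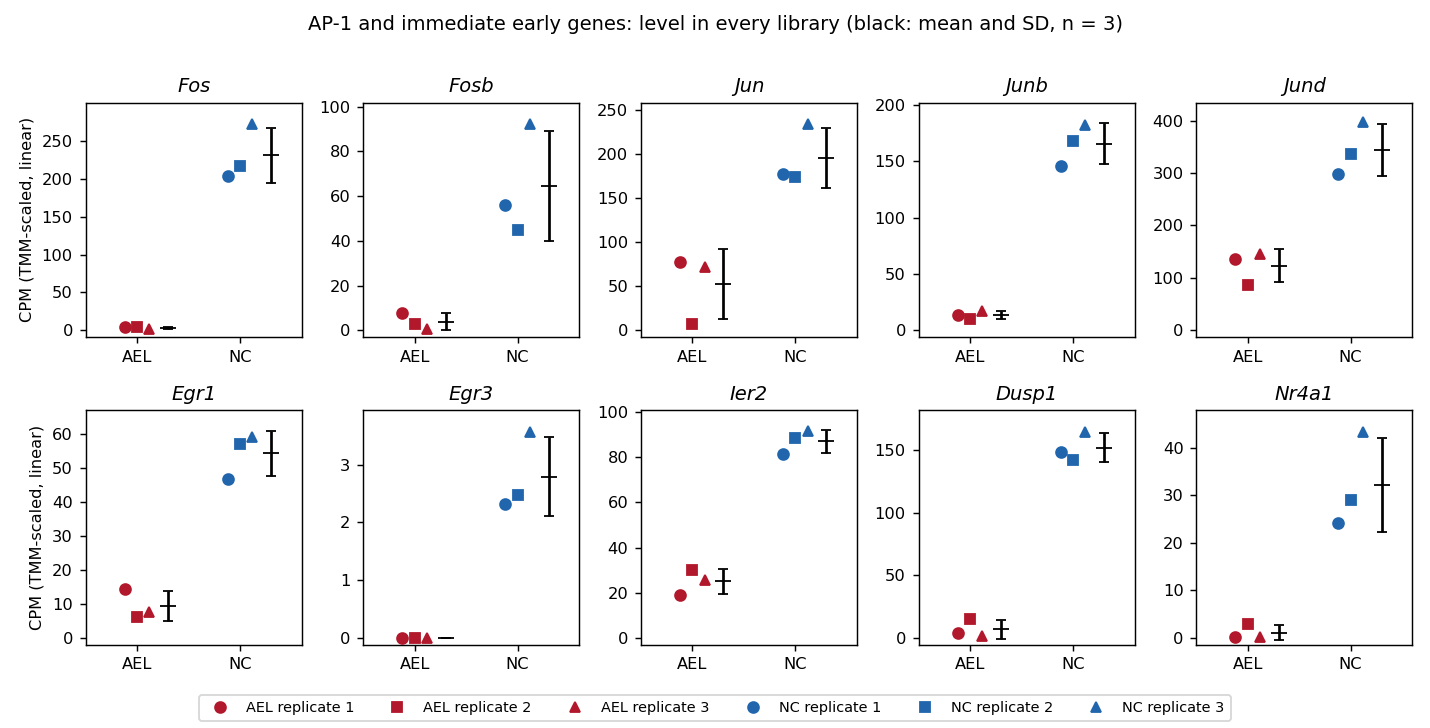
Level of each of the 10 genes in CPM (linear axis from 0, scale per panel) in the 3 AEL libraries (red, left) and the 3 NC libraries (blue, right); marker shapes give the replicate number, black bars the mean and SD (n = 3). All AEL points lie below all NC points in every panel, and Jun in AEL replicate 2 stands at 6.73 CPM, apart from 77.8 and 72.4 CPM in the other AEL libraries.

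The stretches before the start sites are shown for 4 of the 5 members that carry TGACG, the shortest motif searched. RefSeq promoters (GRCm38.p6) matched 7 of the 10 genes; Egr1, Egr3 and Ier2 had no entry. Each line gives the 250 bases before the RefSeq start, 5′ to 3′ on the gene's strand, with capitals marking TGACG, the core of the cAMP response element (CRE) bound by CREB, or its reverse complement CGTCA. The Fos stretch is chr12:85473640-85473889, plus strand; Junb is chr8:84978749-84978998, minus strand; Nr4a1 is chr15:101266596-101266845, plus strand; Dusp1 is chr17:26508473-26508722, minus strand.
Fos: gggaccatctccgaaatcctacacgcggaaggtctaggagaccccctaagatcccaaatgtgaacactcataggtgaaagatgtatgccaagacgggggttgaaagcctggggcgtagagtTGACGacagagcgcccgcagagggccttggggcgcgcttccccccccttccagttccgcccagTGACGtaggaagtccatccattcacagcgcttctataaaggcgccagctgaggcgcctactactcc
Junb: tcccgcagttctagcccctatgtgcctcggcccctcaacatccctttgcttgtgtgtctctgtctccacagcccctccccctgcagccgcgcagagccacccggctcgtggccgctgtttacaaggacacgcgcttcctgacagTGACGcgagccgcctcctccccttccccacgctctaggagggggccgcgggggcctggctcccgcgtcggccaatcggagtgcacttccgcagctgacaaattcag
Nr4a1: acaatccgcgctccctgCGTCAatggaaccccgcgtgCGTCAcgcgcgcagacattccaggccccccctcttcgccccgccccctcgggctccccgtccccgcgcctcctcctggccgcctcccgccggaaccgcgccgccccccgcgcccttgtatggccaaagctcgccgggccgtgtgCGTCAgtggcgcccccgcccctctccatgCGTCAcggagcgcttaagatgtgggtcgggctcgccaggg
Dusp1: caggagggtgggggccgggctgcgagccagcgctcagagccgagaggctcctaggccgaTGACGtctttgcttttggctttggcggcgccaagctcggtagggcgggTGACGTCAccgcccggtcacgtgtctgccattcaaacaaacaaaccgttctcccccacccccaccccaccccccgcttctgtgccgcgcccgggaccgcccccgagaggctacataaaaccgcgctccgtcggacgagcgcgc
On either strand, TGACG was present in 5 of the 7 member promoters, against 17.8% of 32851 RefSeq promoters. This motif was added after the sequences were seen, and overlaps the full CRE. The RefSeq promoters compared were not limited to tested genes and were not matched in base composition. TGACG began 129 and 66 bases before the start of Fos, 106 bases before that of Junb and 60 bases before that of Fosb. Nr4a1 held 4 copies, all as CGTCA, beginning 233, 213, 69 and 40 bases before the start. The full CRE, TGACGTCA, was in 1 member promoter, that of Dusp1, 143 bases before the start, against 1.55% of all promoters. The AP-1 motif TGACTCA (4.46% of all promoters), the CArG box bound by SRF (1.47%) and the EGR motif GCGTGGGCG (0.536%), each searched on both strands, had 0 matches in the 7 windows, which says only that these letters are not in the 250 bases searched. Jun and Jund had no TGACG either. For Jund the RefSeq start used lies 1210 bases upstream of the GENCODE start, so its window is not the one before the GENCODE start; for Dusp1 and Nr4a1 the GENCODE gene span begins further upstream than the RefSeq start. Jun, Junb, Jund and Ier2 have no transcript with more than 1 exon in the GENCODE M21 basic annotation: 4 of 10 members, against 3.67% of 11708 tested genes with a match in it. The median gene span was 4698.5 bases for the members and 22133.5 bases for those genes.

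Among the FOS genes, Fos, which encodes the FOS subunit of AP-1 (chromosome 12, 85473890 to 85477273, plus strand, GRCm38), was at 4.95, 3.91 and 2.47 CPM in AEL replicates 1 to 3 and at 203.5, 217 and 272.0 CPM in NC replicates 1 to 3. The highest AEL library was thus far below the lowest NC library, by 41.1-fold. Fos fell by 5.94 on the log2 scale (SE 0.28, edgeR adjusted p = 7.65e-05), or 61.5-fold. Fosb, its close paralog (chromosome 7, 19302696 to 19310051, minus strand), was at 7.99, 2.93 and 0.823 CPM in the AEL libraries, and NC libraries had 56.1, 45.0 and 92.2 CPM. The AEL libraries spanned 9.71-fold among themselves, and the gap between the groups was 5.63-fold. Fosb fell by 4.06 on the log2 scale (SE 0.74, edgeR adjusted p = 0.00422), with a log2 fold change of -5.05 without AEL replicate 1. Fos took 38.3%, 57.1% and 75% of the counts of both genes in AEL, and 78.4%, 82.8% and 74.7% in NC, so the shares overlapped between the groups.

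The JUN genes did not all change to the same degree. Junb, a JUN protein that often restrains proliferation (chromosome 8, 84974484 to 84978718, minus strand), was at 14.0, 10.2 and 16.9 CPM in the AEL libraries, and NC libraries had 146, 168 and 182 CPM. It fell by 3.59 (log2, SE 0.22, edgeR adjusted p = 0.000119), 12-fold. Jund, the JUN gene with the steadiest expression across cells (chromosome 8, 70698949 to 70700616, plus strand), was at 136, 87.0 and 146 CPM in the AEL libraries, and NC libraries had 298.5, 336 and 397.5 CPM. It fell by 1.48 (log2, SE 0.22, edgeR adjusted p = 0.00202), 2.79-fold, the smallest fitted fall of the 10 genes. Jun, which encodes c-Jun (chromosome 4, 95049034 to 95052222, minus strand), was at 77.8, 6.73 and 72.4 CPM in the AEL libraries, and NC libraries had 178, 174 and 234.5 CPM. All AEL libraries were below all NC libraries, but AEL replicate 2 was 11.6-fold below AEL replicate 1. With all libraries Jun did not pass (edgeR adjusted p = 0.0687), with -1.90 on the log2 scale and an SE of 0.75. Without AEL replicate 2 it passed at -1.34 (edgeR adjusted p = 0.00082), a smaller difference with less spread.

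**Figure D2:**
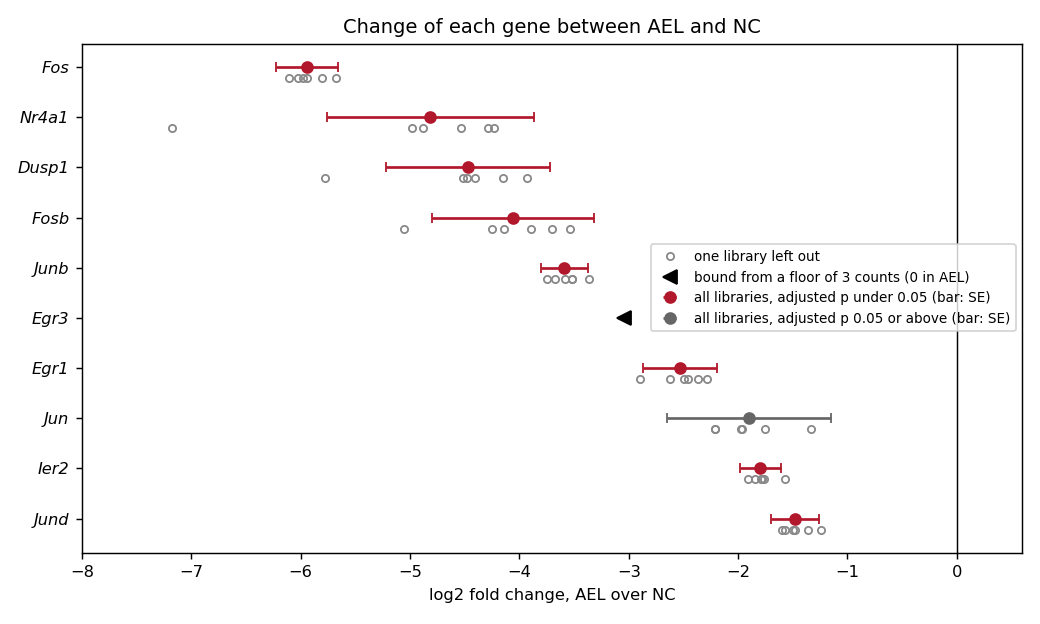
Fitted log2 fold change of AEL over NC for each gene (filled circles, bars are SE), with the values when any single library is left out (open circles); Egr3, at 0 in AEL, is drawn as a bound. Leaving aside Egr3, whose fall has no upper limit here, Fos has the largest fall (-5.94) and Jund the smallest (-1.48), and leaving out AEL replicate 2 moves Nr4a1 to -7.17 and Dusp1 to -5.78.

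The make-up of the JUN family counts differed between the groups. Jund took 59.8%, 83.7% and 62% of Jun, Junb and Jund counts in AEL, and 47.9%, 49.5% and 48.8% in NC. Wilson 95% intervals, which cover counting error only, were 57.6% to 61.9%, 81.2% to 85.9% and 60.1% to 63.9% in AEL, all above the highest NC bound of 50.8%. The means were 68.5% ± 13.2 in AEL and 48.8% ± 0.792 in NC (SD, n = 3 each; exact permutation test, two-sided, p = 0.1, the smallest possible), and the difference of 19.7 percentage points was 12.1 without AEL replicate 2, a setting added after its Jun count was seen. Junb took 6.12%, 9.81% and 7.19% of these counts in AEL, and 23.5%, 24.8% and 22.4% in NC. Per kilobase of exon, Fos and Fosb together held 3.77%, 4.20% and 1.15% of the CPM of the 5 AP-1 genes in AEL, and 26.1%, 24.8% and 27.1% in NC. These shares of the 5 genes were computed after the levels had been seen and are given as a description. They use the GENCODE exon length of Jund, 1668 bases. With its RefSeq length of 2878 bases, the share of Jund would be smaller and that of Fos and Fosb larger in both groups.

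**Figure D3:**
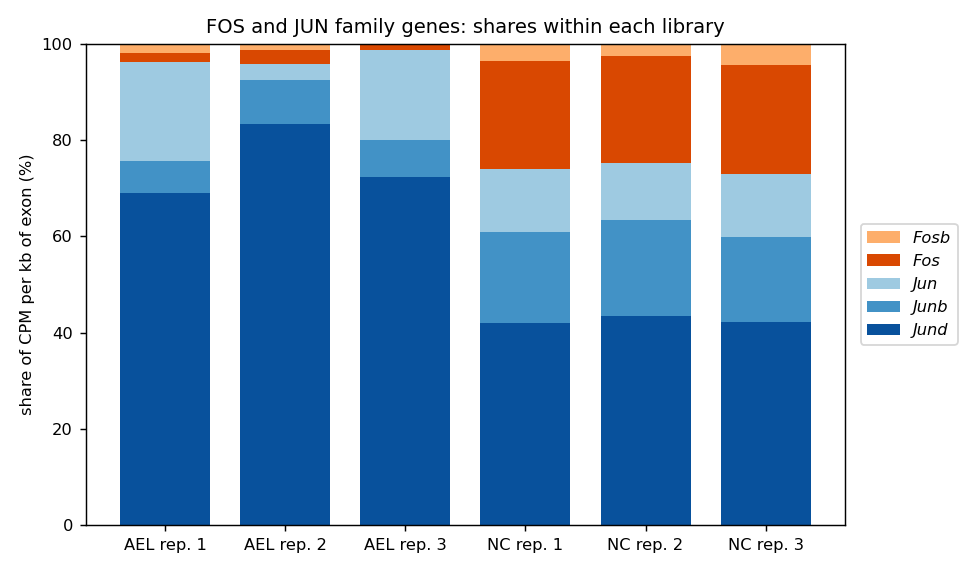
Shares of the 5 AP-1 genes in their summed CPM per kilobase of exon, for each AEL library (left) and each NC library (right). Jund takes 69.1%, 83.4% and 72.3% in AEL and 41.9%, 43.4% and 42.1% in NC, while Fos takes 1.99%, 2.96% and 0.968% in AEL and 22.6%, 22.2% and 22.8% in NC. The shares use the GENCODE length of Jund (1668 bases), and its share would be smaller with the RefSeq length (2878 bases).

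Of the EGR genes, zinc finger factors induced through SRF, Egr1 (chromosome 18, 34859823 to 34864984, plus strand) was at 14.4, 6.29 and 7.5 CPM in the AEL libraries, and NC libraries had 46.7, 56.9 and 59.1 CPM. The groups did not overlap, and Egr1 fell by 2.53 (log2, SE 0.34, edgeR adjusted p = 0.0014). Egr3 (chromosome 14, 70077203 to 70082614, plus strand) had 0 counts in all 3 AEL libraries and 18, 21 and 31 counts in NC, or 2.32, 2.48 and 3.57 CPM. Against a floor of 3 counts in the AEL library with the smallest scaled total (0.338 CPM), the mean of NC was 8.26 times as high, so Egr3 was at least 8.26-fold lower in AEL (edgeR adjusted p = 0.00186). Ier2, a small nuclear protein gene used as an immediate early marker (chromosome 8, 84661331 to 84662852, minus strand), was at 19.2, 30.3 and 25.5 CPM in the AEL libraries, and NC libraries had 81.4, 88.3 and 91.4 CPM. It was among the more even genes in both groups, with a CV of 22.1% in AEL and 5.93% in NC, and fell by 1.80 (log2, SE 0.19, edgeR adjusted p = 0.00064).

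Nr4a1, an orphan nuclear receptor known as Nur77 (chromosome 15, 101254269 to 101274795, plus strand), had 2, 28 and 2 counts in AEL, or 0.225, 3.04 and 0.183 CPM, and stood at 24.2, 28.9 and 43.4 CPM in NC. AEL replicate 2 held 28 of the 32 AEL counts. Nr4a1 fell by 4.81 (log2, SE 0.95, edgeR adjusted p = 0.00574), and its log2 fold change was -7.17 without AEL replicate 2. Dusp1, a phosphatase that switches MAP kinases off (chromosome 17, 26505590 to 26562128, minus strand), was at 4.05, 15.2 and 1.46 CPM in the AEL libraries, and NC libraries had 149, 142 and 165 CPM. It was likewise highest, within AEL, in replicate 2, and fell by 4.47 (log2, SE 0.75, edgeR adjusted p = 0.00308), with a log2 fold change of -5.78 without that library. AEL replicate 2 thus had the highest Nr4a1, Dusp1 and Ier2 and the lowest Jun, Junb, Jund and Egr1 of the AEL libraries.

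NC replicate 3 had the highest level of all 10, and of 24 of 28 other immediate early genes, where it had the highest NC level of 39.9% of all genes tested. NC replicate 3 was also the highest NC library for the summed markers of neutrophils (8307, 9183 and 9723 CPM in NC replicates 1 to 3) and of monocytes and macrophages (4812, 5319 and 5816 CPM). It was highest, too, for the summed markers of erythroid cells (55990, 63760 and 71080 CPM), of B cells (269, 263 and 318 CPM) and of mast cells, basophils and eosinophils (191, 204 and 224 CPM), but not for those of T and NK cells, megakaryocytes or stroma. Whether these bear on the order was not tested. Within AEL no library led: replicates 1, 2 and 3 were highest for 4, 3 and 2 of the genes, with Egr3 at 0 in each.

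Per kilobase of exon (union of exons in the GENCODE M21 basic annotation), the order of levels differed between the groups. In AEL, Jund led at 73.8 ± 18.9 CPM per kilobase, followed by Ier2 at 16.4 ± 3.63 and Jun at 16.4 ± 12.4, Junb at 7.57 ± 1.86, Dusp1 at 2.91 ± 3.07, Egr1 at 2.10 ± 0.976, Fos at 1.79 ± 0.591, Fosb at 1.03 ± 0.974, Nr4a1 at 0.429 ± 0.611 and Egr3 at 0 (SD, n = 3 each). Below Jund, the mean ± SD ranges of all neighbours in this order overlapped down to Nr4a1. In NC, Jund led at 206 ± 30.0 CPM per kilobase, followed by Fos at 109.5 ± 17.2, Junb at 91.4 ± 9.98, Dusp1 at 64.0 ± 4.89, Jun at 61.3 ± 10.6, Ier2 at 57.2 ± 3.39, Fosb at 17 ± 6.53, Egr1 at 12.1 ± 1.48, Nr4a1 at 12 ± 3.73 and Egr3 at 0.68 ± 0.166 (SD, n = 3 each). There the ranges overlapped for Fos and Junb, among Dusp1, Jun and Ier2, and among Fosb, Egr1 and Nr4a1. Jund is 1668 bases long in GENCODE and 2878 bases in RefSeq; with the RefSeq length its level was 42.8 ± 11 CPM per kilobase in AEL and 119.5 ± 17.4 in NC (SD, n = 3 each), where its range overlapped that of Fos.

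Exons of 4 members overlap another gene's exons on the opposite strand, and the strandedness of the counting is not given. Junb overlaps Prdx2, a peroxiredoxin abundant in red cells, by up to 173 bases; Prdx2 was at 723, 752 and 504 CPM in the AEL libraries, and NC libraries had 2505, 2228 and 2288 CPM. Jun overlaps its antisense transcript Junos by up to 232 bases; Junos had 1, 2 and 4 counts in AEL and 13, 9 and 22 in NC, below the filter. Jund overlaps Gm11175 by up to 543 bases, and Dusp1 overlaps Ergic1 by 11 bases. Reads within these overlaps cannot be assigned with certainty.

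Genes of the same response beyond the 10 were lower in AEL too, although not all. Of 28 other immediate early genes tested (30 of 34 listed were in the table), 19 were lower and 3 higher, 67.9% and 10.7%, against 29.0% and 23.9% of all genes tested, with a median log2 fold change of -2.45. Of the 19, 5 (Ptgs2, Plk2, Trib1, Egr2 and Gadd45b, of which the last 2 are named after their values were seen) reached 1 CPM in no AEL library and passed the filter through NC, so their direction follows from it and the count and median carry that limit. Ptgs2, which encodes cyclooxygenase-2, and Plk2, a stress-responsive kinase, had 0 counts in every AEL library and averaged 18.6 and 4.82 CPM in NC, at least 55.0-fold and 14.3-fold lower. Trib1, a pseudokinase, fell by 6.19 (log2, SE 0.30). The 3 that were higher were Homer1, a scaffold protein known from synapses, at 84.4, 59.0 and 40.0 CPM in the AEL libraries against 8.12, 9.10 and 12.3 CPM in NC, Zfp36l2, an RNA-decay factor, at 1.90 (log2, SE 0.26) and Per1, a clock gene, at 1.59 (SE 0.32).

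Of 12 other AP-1 family and related bZIP genes tested, 6 were lower and 2 higher (median -2.76), and 4 of the 6 passed the filter through NC alone. Maf, a large bZIP factor of macrophages and lymphocytes, had 1, 5 and 2 counts in AEL, against 344, 464 and 535 counts in NC. That the groups did not overlap also follows from the filter, and every AEL library was below every NC library for 36.1% of all genes tested. Maf fell by 7.53 (log2, SE 0.44), with a log2 fold change of -8.30 without AEL replicate 2. Batf, an AP-1 factor of lymphocytes, had 0, 1 and 1 counts in AEL, against 30, 44 and 30 counts in NC, and fell by 5.67 (SE 0.62). Batf also passed the filter through NC alone. The size of its fall is uncertain at these counts: limma gave -2.3 and -0.85 with pseudocounts of 1 and 5 CPM. Atf7 and Atf2, JUN partners of the ATF group, were higher by 1.51 (SE 0.13) and 0.64 (SE 0.12).

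The kinases and factors that act upstream of these genes went both ways, near the shares of all genes tested (29.0% lower and 23.9% higher). Of 14 SRF, TCF and CREB regulators 3 were lower and 4 higher (median -0.04). Srf itself averaged 61.5 ± 20.1 CPM in AEL libraries and 54.2 ± 2.31 CPM in NC libraries, and for Creb1 the AEL mean was 89.8 ± 21.5 CPM and the NC mean 93.1 ± 6.00 CPM (SD, n = 3 each); neither passed (edgeR adjusted p = 0.537 and 0.83). The CREB coactivators Crtc3 and Crtc1 were higher by 2.09 (SE 0.18) and 1.59 (SE 0.17), and Elk4, an SRF partner, by 1.78 (SE 0.26). The 3 lower were Elk3, another SRF partner, at -2.76 (SE 0.45), Nab2, which represses EGR factors, at -1.87 (SE 0.58), and the SRF coactivator Mkl1 at -1.25 (SE 0.22). Of 16 MAP kinase and JNK path genes 4 were lower and 5 higher (median 0.10): Rps6ka1, an ERK-activated kinase, fell by 3.21 (SE 0.45), Mapkapk2, a p38 target, by 2.09 (SE 0.74, edgeR adjusted p = 0.0492) and Mapk3, which encodes ERK1, by 2.08 (SE 0.35), while the Rps6ka1 relative Rps6ka3, the JNK activator Map2k7 and the p38 gene Mapk14 were higher by 0.89 (SE 0.11), 0.83 (SE 0.12) and 0.54 (SE 0.12). Nab2 did not pass without AEL replicate 3 (-1.46), NC replicate 2 (-1.67) or NC replicate 3 (-1.70), nor with limma after quantile normalization, where its log2 fold change was -0.14 (limma adjusted p = 0.742). Mapkapk2 did not pass without AEL replicate 2 (-1.96) or any single NC library (-2.15 to -2.04), and without AEL replicate 1 its log2 fold change was -3.06 and that of Rps6ka1 -3.84. The number lower in the MAP kinase list was 2 with library totals alone, and the number higher was 3 with any single NC library left out.

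Of 12 MAP kinase feedback genes, relatives of Dusp1 in role, 7 were lower and 3 higher, 58.3% and 25.0%, against 29.0% and 23.9% of all genes tested (median -2.22). Of the 7, 2 passed the filter through NC alone, so their direction follows from it: Spry2 and Dusp5, the latter named after its values were seen. Spry2, a receptor tyrosine kinase inhibitor, had 0 counts in AEL, at least 7.35-fold lower. Dusp6, an ERK phosphatase, had a log2 fold change of -3.78 (SE 0.38) and Dusp3, another phosphatase of this family, of -3.61 (SE 0.61). Dusp10, which acts on JNK and p38, was higher by 2.23 (SE 0.52), Dusp16 by 0.87 (SE 0.30) and Spred2 by 0.85 (SE 0.25); 1 higher call was left with any single NC library out. Dusp16 did not pass without AEL replicate 3 (0.63) or any single NC library (0.72 to 1.04), nor did Spred2 without any single NC library (0.80 to 0.93). Heat shock genes, which also respond to cell handling, went both ways: of 11 tested, 2 were lower and 4 higher, 18.2% and 36.4%, against 29.0% and 23.9% of all genes (median 0.22). Dnajb1 and Dnajb4 fell by 0.94 (SE 0.14) and 0.83 (SE 0.22), and Hsph1, Hsp90aa1 and Hspd1 were higher by 1.28 (SE 0.40), 1.21 (SE 0.13) and 0.96 (SE 0.17). The inducible Hspa1a and Hspa1b are named after their values were seen. Hspa1a was at 45.0, 1.84 and 0.366 CPM in the AEL libraries, and NC libraries had 135, 170 and 228 CPM. Hspa1b was at 135, 4.34 and 2.01 CPM in the AEL libraries, and NC libraries had 268, 342 and 463 CPM. For both, every AEL library was below every NC library, but neither difference passed (edgeR adjusted p = 0.0635 and 0.117). With any single NC library left out 1 heat shock gene was lower and 2 were higher, and without AEL replicate 1 the numbers were 4 and 2. Dnajb4 did not pass without any single NC library (-0.85 to -0.80), nor did Hsph1, which also did not pass without AEL replicate 1 (0.87).

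**Figure D4:**
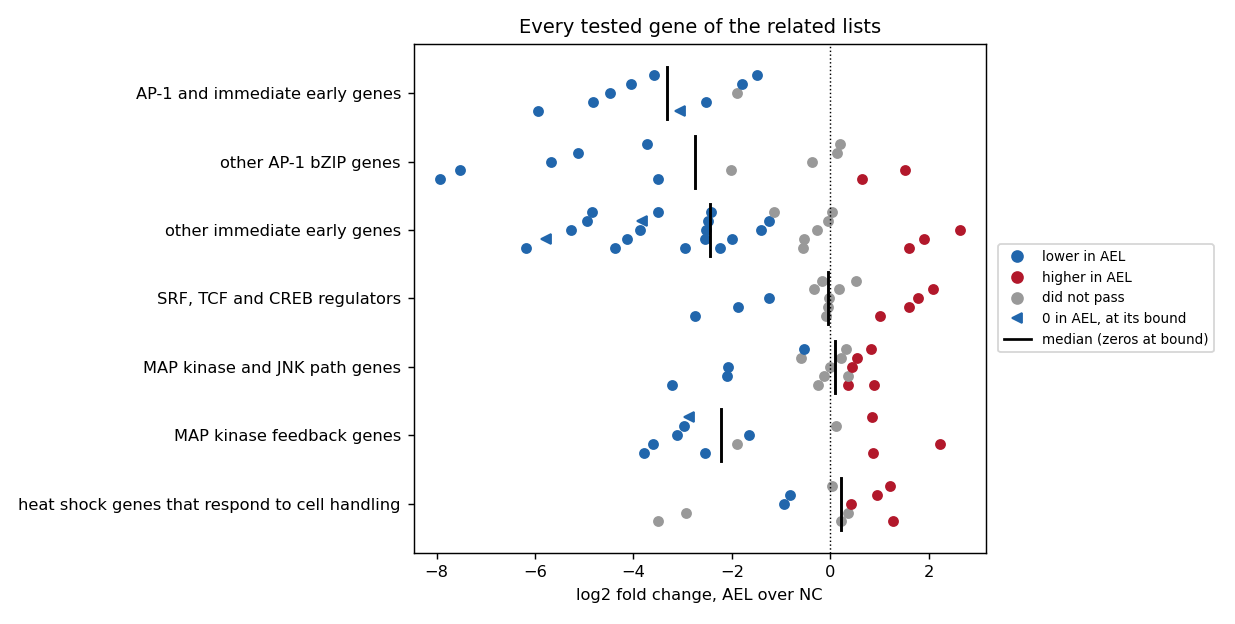
Log2 fold change of AEL over NC for each tested gene of the 10 and of the 6 related lists (points; triangles are genes at 0 in AEL, at their bound; black lines are medians). The other immediate early genes (19 of 28 lower) and feedback genes (7 of 12 lower) lie mostly left of 0, while the medians of the upstream regulators (-0.04) and the MAP kinase path (0.10) lie near it.

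Markers of most other marrow cells were lower in the same libraries, and so were most erythroid markers. Erythroid markers (9 of 12 lower) summed to 14190, 7591 and 5268 CPM in AEL and to 55990 to 71080 CPM in NC, a 7.05-fold difference of the means. Neutrophil markers, of which 14 of 16 were lower, summed to 19.8, 1237 and 131 CPM in AEL and to 8307 to 9723 CPM in NC. Monocyte and macrophage markers (13 of 14 lower) summed to 17.6, 310 and 111 CPM in AEL and to 4812 to 5816 CPM in NC. B cell markers (12 of 12 lower) summed to 2.14 to 3.11 CPM in AEL and 263 to 318 CPM in NC, T and NK cell markers (4 of 4 tested lower) to 0.225 to 0.915 and 48.6 to 54.3 CPM, mast cell, basophil and eosinophil markers (6 of 9 lower) to 1.35 to 19.8 and 191 to 224 CPM, and stroma and endothelium markers (6 of 8 tested lower) to 4.95 to 13.3 and 72.4 to 87.3 CPM. No B cell, T cell or NK cell marker tested reached 1 CPM in an AEL library. They passed the filter through NC alone, so their direction follows from it, as it does for some markers of the other lists. Lower calls made up 29.0% of all genes tested. Megakaryocyte markers went both ways, with 2 of 6 tested lower and 3 higher, and summed to 172 to 442 CPM in AEL and 113 to 132 CPM in NC. Of these markers Epx, Ccr3, Gp1bb, Ppbp and Col3a1 were at 0 in every AEL library, and none was at 0 in every NC library. AEL replicate 2 held the most neutrophil and macrophage marker RNA of the AEL libraries and also the highest Nr4a1, Dusp1 and Ier2, but not the highest Fos, Fosb, Junb or Egr1. In AEL replicate 1, where both sums were under 20 CPM, Fos was at 4.95 CPM and Junb at 14.0 CPM. The part of these cells in the falls of the 10 genes was not tested.

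**Figure D5:**
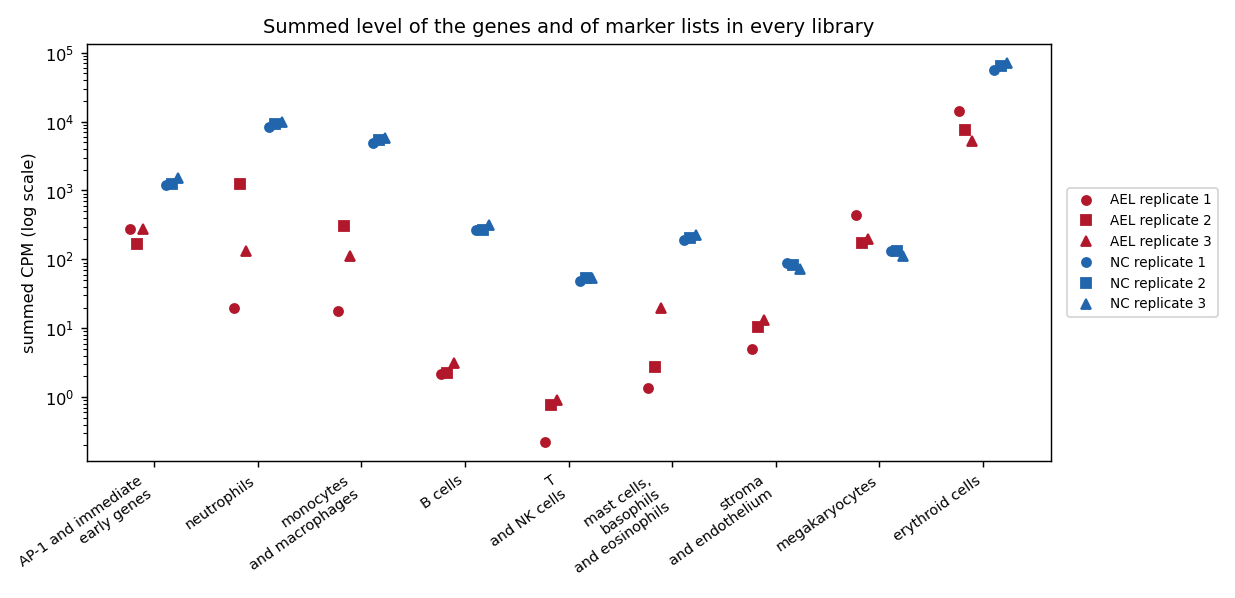
Summed CPM (log axis) of the 10 immediate early genes and of 8 marker lists in every AEL library (red) and NC library (blue). Neutrophil markers span 19.8 to 1237 CPM in AEL and lie between 8307 and 9723 CPM in NC. Within AEL, replicate 2 is highest for them and lowest for the summed immediate early genes. That replicate has the least Jun within AEL (6.73 CPM) but the most Nr4a1, Dusp1 and Ier2. Whether neutrophils bear on the summed level was not tested.

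Outside the lists, the genes whose pattern over the 6 libraries was nearest to the mean pattern of the 10 were Ccrl2, Tfeb and Rhoq, by Euclidean distance between centred log2(CPM + 0.5) profiles (0.333, 0.427 and 0.432) among 8784 genes at 10 CPM or more in NC. Ccrl2 was at 1.80, 2.06 and 1.28 CPM in the AEL libraries, and NC libraries had 20.9, 21.6 and 24.6 CPM.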

How the data were processed

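Poly-A RNA of sorted marrow cells was sequenced, per the labels' protocols. The authors deposited 1 table, named CPM, that holds whole-number counts per gene, not scaled. Per the submitters' processing notes, edgeR 3.32.1 and the mm10 build were used at an unstated step. For aligner, counter and strandedness the entry is: not given in the sources used here. All deposited genes exceed 1 CPM in at least 2 libraries.

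The members, lists and tests were chosen with earlier results of these data known. Counts were tested with edgeR 4.0.16 (R 4.3.3): TMM scaling, group as the only term, quasi-likelihood F test, a filter that kept 12427 of 13007 genes (3 or more libraries at 1 CPM), Benjamini-Hochberg adjustment over all of them, calls under 0.05. SEs were derived as |log2 fold change| over the root of F. DESeq2 1.42.0 (26 adjusted p-values NA) and limma 3.58.1 (pseudocounts of 1 and 5 CPM) were alternatives. The code was tested on simulated data with the same spread in both groups, unlike the AEL and NC libraries. Between libraries of a group the chi-square per degree of freedom was 4.82 to 8.81 in NC and 47.1 to 59.0 in AEL. No library is thus a copy of another's counts, but these values cannot tell whether libraries share a source of cells. Named genes were the 10 members, per list up to 3 lower and 3 higher calls with the largest change, and the 3 nearest profiles; 1 gene that this rule takes is not reported here. Gene positions are from GENCODE M21 (GRCm38), promoters from RefSeq (GRCm38.p6); proteins were not analysed here. Python 3.11.15 was used for the rest.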

Additional observations from a re-analysis of the deposited data

How the results depend on the processing

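All 10 genes kept a negative log2 fold change under all 15 alternatives (3 other scalings, no filter, DESeq2, limma at 2 pseudocounts and with quantile normalization, the replicate block, and each library left out), and 9 of them passed in every one. The exception was Jun, which passed with limma (-2.46, -2.24 and -2.41), the replicate block (-2.38) and without AEL replicate 2 (-1.34), so 9 or 10 of the genes were lower, and 0 higher, under each alternative. Library totals alone and quantile normalization gave a median over all genes of 0.14 and 0.11, against -0.05, and higher genes made up 55.2% and 55.5% of calls, against 45.2%; Jund, with the smallest fall, was lower there too. Replicate numbers did not pair the samples (correlations of same-numbered deviations 0.0824, -0.0167 and -0.0314); the replicate block gave 3238 lower and 2241 higher calls over all genes, against 3599 and 2965, with 3 higher MAP kinase path genes and 2 higher heat shock genes, and Nab2 (-1.89), Dusp16 (0.85) and Hsph1 (1.12) did not pass. Mapkapk2 did not pass with library totals alone (-1.93), nor Dusp16 with upper-quartile factors (0.84).

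MAP kinase path genes numbered 2 lower with library totals alone and 3 higher with upper-quartile factors; leaving out a library gave 3 to 6 higher. Heat shock genes numbered 4 lower with limma at pseudocounts of 1 and 5 and with quantile normalization; leaving out a library gave 1 to 4 lower and 2 to 4 higher. Higher feedback genes numbered 1 to 3 with a library left out. Without NC replicate 1 or 2, higher calls over all genes fell to 1915 and 1972, against 2965. The difference in summed level was -1089 CPM, or -988 CPM with library totals alone. The cause of these shifts was not tested. Depth limits Egr3, with 70 counts in all, and Nr4a1, with 32 counts in AEL.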
